A study of Homo sapiens with 12 samples.

Results

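The 10 genes described here encode the core and accessory subunits of Polycomb repressive complex 2 (PRC2), and they were taken by symbol from a table of 14438 genes. They are EZH2, EZH1, EED, SUZ12, RBBP4 and RBBP7 of the core, and JARID2, AEBP2, MTF2 and PHF19 of the accessory subunits. All 10 were in the table, and all 10 passed the filter on low counts. RNA-Seq was carried out on 4 lines of HEK293T, a human embryonic kidney line, with 3 replicate libraries per line and 12 libraries in all. Every line had been infected with a lentivirus carrying an EZH2 coding sequence and selected with blasticidin. The EZH2 WT line received the wild-type sequence, EZH2 Y641F and EZH2 A677G received single substitutions with gain of function (GOF), and EZH2 H689A/F667I received a double substitution with loss of function (LOF). The lines are named below by the allele alone, as WT, Y641F, A677G and H689A/F667I, to keep them apart from the EZH2 gene. The cells kept their own EZH2 gene, so the EZH2 count held introduced and endogenous transcripts together, which cannot be told apart in a count per gene symbol. The control with an empty vector was not analysed here, so EZH2 WT is also a line with added EZH2. According to the methods, selection was meant to give monoclonal populations. Each genotype was therefore a single selected line, and its libraries cannot separate the substitution from other features of that line. The p-values measure the spread between these libraries.

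PRC2 places methyl groups on lysine 27 of histone H3, and the trimethylated mark accompanies silenced genes. EZH2 or its paralog EZH1 carries the catalytic SET domain, and neither works without EED and SUZ12. EED reads the trimethyl mark and stimulates the enzyme, SUZ12 is the scaffold, and RBBP4 and RBBP7 bind histones. The accessory subunits divide the complex into subtypes, with MTF2, PHF19 or PHF1 in PRC2.1 and JARID2 with AEBP2 in PRC2.2. HEK293T cells divide quickly, and EZH2 is typically the prevailing paralog in dividing cells.

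The codons that distinguish the lines are shown because they define the groups compared. EZH2 (ENSG00000106462.12) lies on the minus strand of chromosome 7 at chr7:148807257-148884321 in GRCh38. The residue numbers in the labels matched the coding sequence of 746 codons of transcript EZH2-203, and did not match that of 751 codons of the canonical transcript EZH2-201. In EZH2-203, the codon changed in Y641F is in exon 16, that of F667I in exon 17, and those of A677G and H689A in exon 18, all of them coding exons. The reference sequence is given 5′ to 3′ on the coding strand, with the changed codon in capitals and 12 bases on each side. The window of Y641F is read along the spliced transcript and runs from exon 16 into the next exon, so it is not continuous in the genome, while the other windows each lie within an exon. The introduced sequences themselves were not read here.
Y641F, codon at chr7:148811634-148811636: ttcatctcagaaTACtgtggagagatt
F667I, codon at chr7:148810346-148810348: tgcagctttctgTTCaacttgaacaat
A677G, codon at chr7:148809374-148809376: tttgtggtggatGCAacccgcaagggt
H689A, codon at chr7:148809338-148809340: cgttttgcaaatCATtcggtaaatcca

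Total counts per library ranged from 32137700 to 44562413. The HEK293 markers VIM, NEFL, NEFM and KRT18 were read in every library, while PAX2 reached at most 0.594 CPM, which are normalized counts scaled to a common library size, and was at 0 in the A677G line. PAX2 was among the genes left out of the tests for being at 0 in a whole line. Whether its 0 reflects lost expression was not tested. Of 3 adult kidney tubule markers, 0 were in the table. Of 3 fibroblast markers, COL1A1 and COL3A1 were in the table and DCN was not. Y641F replicate 1 stood apart from the other libraries on the second principal component, at -19.2 against a range of -10.1 to 10.6. On the first component, which divides the GOF libraries from the others, it lay at 5.60 against 15.2 to 17.7 for the other 5 GOF libraries.

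EZH2 was the member that differed most between the lines. Its normalized level was 157, 163 and 154 CPM in the 3 WT libraries, 228, 209 and 217 CPM in Y641F, 174, 165 and 182 CPM in A677G, and 208, 210 and 206 CPM in H689A/F667I. All 9 mutant libraries lay above all 3 WT libraries. The Y641F and H689A/F667I libraries overlapped with each other, and the A677G libraries lay below both.

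Against WT, EZH2 was higher by 0.46 on the log2 scale in Y641F (95% interval 0.38 to 0.54, adjusted p = 1.57e-10, edgeR quasi-likelihood test), or 37.8%. It was higher by 0.40 in H689A/F667I (0.31 to 0.48, adjusted p = 1.15e-07 in edgeR), or 31.6%. In A677G the difference was 0.13 (0.05 to 0.21, adjusted p = 0.0294 in edgeR), or 9.64%. That call was lost with upper-quartile factors (0.11, adjusted p = 0.0771 in edgeR) and with library totals (0.13, adjusted p = 0.063 in edgeR), and when any of 4 libraries was left out. The adjusted p rose to 0.233 without A677G replicate 3, 0.126 without WT replicate 3, 0.111 without WT replicate 1 and 0.102 without A677G replicate 1, with log2 differences of 0.10, 0.12, 0.13 and 0.13. Without Y641F replicate 1, the difference of Y641F from WT was 0.43.

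Among the mutant lines, the Y641F line exceeded the A677G line in EZH2 by 0.33 (95% interval 0.25 to 0.41, adjusted p = 9.34e-06 in edgeR). EZH2 was lower in A677G than in H689A/F667I, by -0.26 (-0.34 to -0.18, adjusted p = 1.09e-05 in edgeR). The EZH2 levels of Y641F and H689A/F667I were not separated, at 0.07 (-0.01 to 0.15, adjusted p = 0.357 in edgeR). The order of the lines by EZH2 was thus Y641F and H689A/F667I, not separated, then A677G, then WT, the last step resting on the call that other settings lost. This order did not follow the division into GOF and LOF. In the mean of both GOF lines against the mean of the WT and LOF lines, EZH2 differed by 0.10 (0.04 to 0.16, adjusted p = 0.0108 in edgeR), with overlapping libraries, and the call was lost without A677G replicate 3 (0.08, adjusted p = 0.0554 in edgeR).

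**Figure D1:**
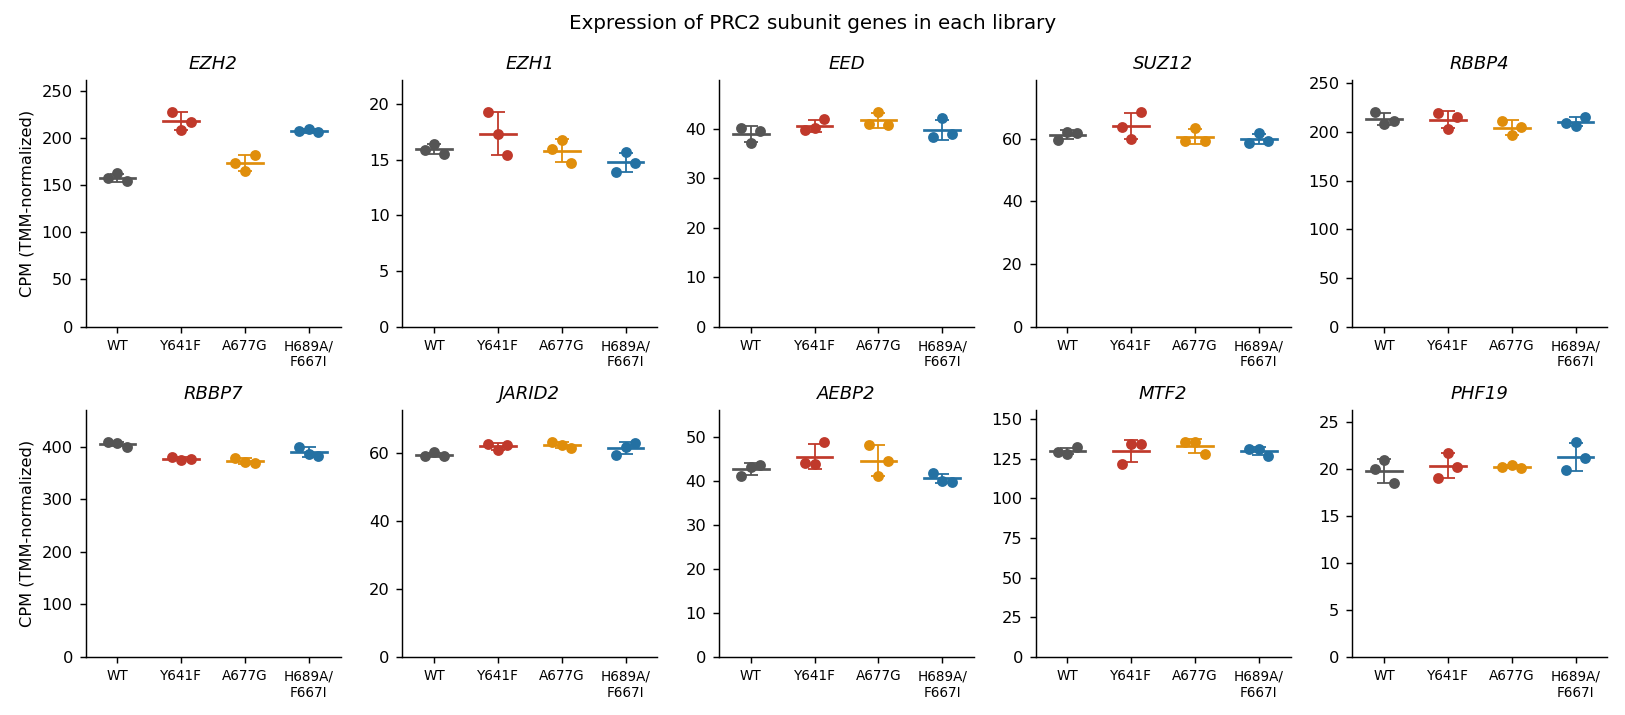
TMM-normalized CPM (vertical axes, from 0, a scale per gene) of the 10 PRC2 subunit genes in each of the 12 libraries, grouped by line; points are libraries, horizontal lines are means and error bars are SD (n = 3). EZH2 lay above the WT libraries in all 9 mutant libraries, while the other 9 genes differed between line means by at most 1.18-fold.

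EZH1, the catalytic paralog with the weaker methyltransferase activity, was read at 15.9, 16.4 and 15.5 CPM in WT and at 19.3, 17.3 and 15.4 CPM in Y641F. It stood at 16.0, 16.8 and 14.7 CPM in A677G and at 13.9, 15.6 and 14.7 CPM in H689A/F667I. The libraries of the lines overlapped in every pair. Its difference from WT in the LOF line was -0.11 on the log2 scale, with a 95% interval of -0.29 to 0.06 (adjusted p = 0.792 in edgeR), so a rise above 0.06 lay outside the interval. The widest gap was between Y641F and H689A/F667I, at 0.23 (0.06 to 0.41, adjusted p = 0.0834 in edgeR), which did not pass. It passed without Y641F replicate 3, at 0.31 (adjusted p = 0.0269 in edgeR), and was 0.15 without Y641F replicate 1 (adjusted p = 0.347 in edgeR). EZH1 held the fewest reads of the members, 473 to 811 counts per library.

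Per kilobase of transcript, which allows levels of different genes to be compared, EZH2 made up 94.5% ± 0.0086 of the sum of EZH1 and EZH2 in WT (SD, n = 3). The share was 95.6% ± 0.388 in Y641F, 95.02% ± 0.542 in A677G and 96.1% ± 0.200 in H689A/F667I. The libraries of Y641F and of H689A/F667I all lay above those of WT, and those of A677G overlapped with WT. The EZH2 count holds introduced transcript in every line, so this is not the share of the cells' own genes.

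EED and SUZ12, which EZH2 needs for activity, passed no test in any comparison, where 0.0841% to 15.9% of all genes passed. EED ranged from 37.0 to 43.4 CPM over the 12 libraries and SUZ12 from 58.5 to 68.5 CPM. Against WT, the log2 differences of EED were 0.06, 0.10 and 0.03 in Y641F, A677G and H689A/F667I. Those of SUZ12 were 0.07, -0.01 and -0.03. Over the 3 comparisons with WT, the 95% intervals reached from -0.08 to 0.21 for EED and from -0.13 to 0.16 for SUZ12. For both genes these intervals left out the differences of 0.46 and 0.40 seen for EZH2. Taken over the 3 comparisons, they did include the 0.13 seen for EZH2 in A677G.

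The ratio of EZH2 to its partners therefore differed between the lines. Per kilobase, EZH2 stood at 4.37 ± 0.127 times SUZ12 in WT, 5.78 ± 0.368 in Y641F, 4.85 ± 0.403 in A677G and 5.89 ± 0.129 in H689A/F667I (SD, n = 3). The ratio to EED was 3.203 ± 0.220, 4.22 ± 0.257, 3.28 ± 0.271 and 4.12 ± 0.174 in the same order. Y641F and H689A/F667I lay above WT in every library for both ratios, while A677G overlapped with WT. A ratio within a library does not depend on how libraries were scaled, but the EZH2 count in it also holds introduced transcript.

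**Figure D2:**
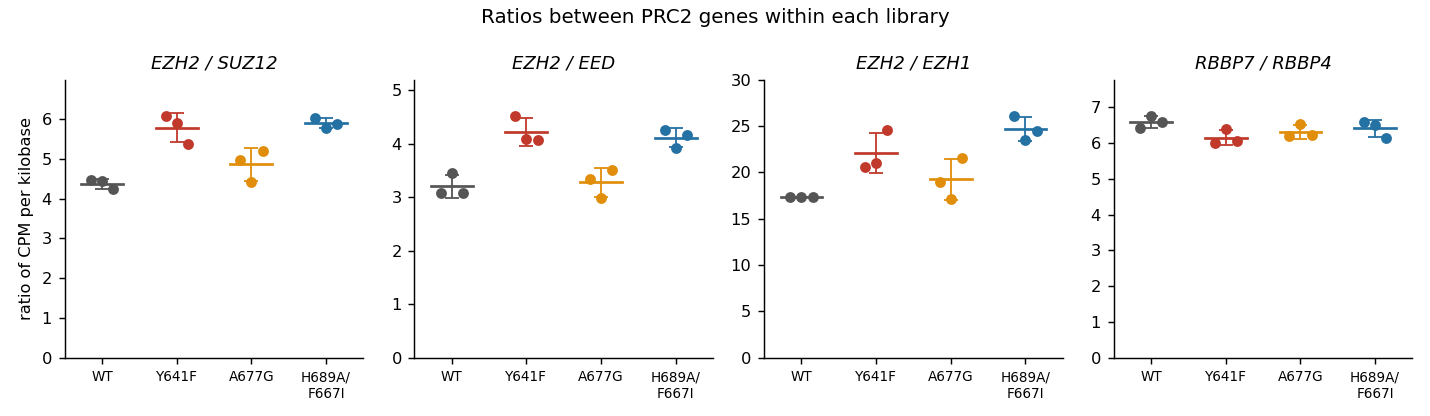
Ratios of CPM per kilobase of transcript between pairs of PRC2 genes within each library (vertical axes, from 0, a scale per pair), by line; points are libraries, horizontal lines are means and error bars are SD (n = 3). EZH2 to SUZ12 ran from 4.23 to 6.07 and RBBP7 to RBBP4 from 5.996 to 6.75 over the 12 libraries.

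RBBP7 and RBBP4 are histone-binding WD40 proteins that PRC2 shares with deacetylase and chromatin assembly complexes. RBBP7 was read at 409, 408 and 401 CPM in WT, 381, 375 and 378 CPM in Y641F, 379, 372 and 369 CPM in A677G, and 400.3, 387 and 383 CPM in H689A/F667I. Every GOF library lay below every WT and LOF library. The log2 difference from WT was -0.10 in Y641F (95% interval -0.17 to -0.04, adjusted p = 0.0484 in edgeR) and -0.12 in A677G (-0.19 to -0.05, adjusted p = 0.0151 in edgeR). The first of these calls was lost under edgeR's exact test (adjusted p = 0.0527), with library totals (0.0728), with only the compared lines in the fit (0.154) and with thinned counts (0.0648).

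Both GOF lines together differed from the WT and LOF lines by -0.08 in RBBP7 (-0.13 to -0.04, adjusted p = 0.0103 in edgeR). In H689A/F667I against WT the difference was -0.06 (-0.12 to 0.01, adjusted p = 0.693 in edgeR). The call in Y641F was also lost in 10 of the 12 fits that left out a library, which were all but those without Y641F replicate 1 or H689A/F667I replicate 1. Their adjusted p reached 0.153. The call in A677G was lost without WT replicate 1 or 2 or A677G replicate 2 or 3, at adjusted p of 0.0613 to 0.0665. In all of these fits the log2 difference stayed between -0.12 and -0.10.

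RBBP4 ranged from 197 to 221 CPM, and its log2 differences from WT were -0.00 in Y641F, -0.06 in A677G and -0.02 in H689A/F667I. None passed, and their 95% intervals ran from -0.14 to 0.07. RBBP7 stood at 6.58 ± 0.169 times RBBP4 per kilobase in WT and at 6.15 ± 0.215 in Y641F (SD, n = 3), with separate libraries. In A677G the ratio was 6.31 ± 0.192 and in H689A/F667I 6.41 ± 0.239, both overlapping with WT. Of the sequence of RBBP4, 14.98% of words of 31 bases also occur among 2500 other genes, with 6.58% in the processed copy RBBP4P1. For SUZ12 it was 13.7%, mostly in SUZ12P1. How reads from such words were assigned is uncertain. SUZ12P1 itself was read at 8.80 to 10.6 CPM and did not differ in any comparison (lowest adjusted p = 0.842 in edgeR). The share of such words was 4.66% for EED, 3.47% for EZH2, at most 0.121% for JARID2 and AEBP2, and 0 for EZH1, RBBP7, MTF2 and PHF19.

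The 4 accessory subunits passed no test in any pair of lines, where 0.0841% to 10.3% of all genes passed, so this says little about them. JARID2, which binds nucleosomes and helps to recruit PRC2.2, was read at 59.1, 60.2 and 59.2 CPM in WT, 62.6, 60.9 and 62.5 CPM in Y641F, 63.2, 62.5 and 61.5 CPM in A677G, and 59.5, 61.8 and 63.0 CPM in H689A/F667I. The GOF libraries all lay above WT, by 0.06 and 0.07 on the log2 scale (adjusted p = 0.510 and 0.412 in edgeR). MTF2, which binds unmethylated CpG islands, ranged from 122 to 136 CPM, and its line means differed least of the 10 genes, by 1.02-fold. PHF19, its paralog with a Tudor domain, ranged from 18.5 to 22.9 CPM, and its 95% intervals against WT ran from -0.12 to 0.25.

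AEBP2, the partner of JARID2 in PRC2.2, was read at 41.1, 43.1 and 43.6 CPM in WT and at 43.9, 43.7 and 48.8 CPM in Y641F. It stood at 48.1, 41.1 and 44.6 CPM in A677G and at 41.8, 40.0 and 39.8 CPM in H689A/F667I. The Y641F libraries lay above those of both WT and H689A/F667I, while those of A677G overlapped with both.

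AEBP2 was higher in the GOF lines than in the WT and LOF lines, by 0.12 (95% interval 0.03 to 0.20, adjusted p = 0.0433 in edgeR). The call was lost in 7 of the 12 fits that left out a library, namely without WT replicate 1 or 2, Y641F replicate 3, A677G replicate 1 or 3, or H689A/F667I replicate 2 or 3. Their log2 differences were 0.09 to 0.12 and their adjusted p 0.0633 to 0.192. In Y641F against H689A/F667I the difference was 0.17 (0.05 to 0.28, adjusted p = 0.0621 in edgeR). That passed without Y641F replicate 1 (0.19, adjusted p = 0.0396 in edgeR) and without Y641F replicate 2 (0.20, adjusted p = 0.0409 in edgeR). A677G against H689A/F667I gave 0.14 and passed without A677G replicate 2, at 0.20 (adjusted p = 0.0438 in edgeR).

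**Figure D3:**
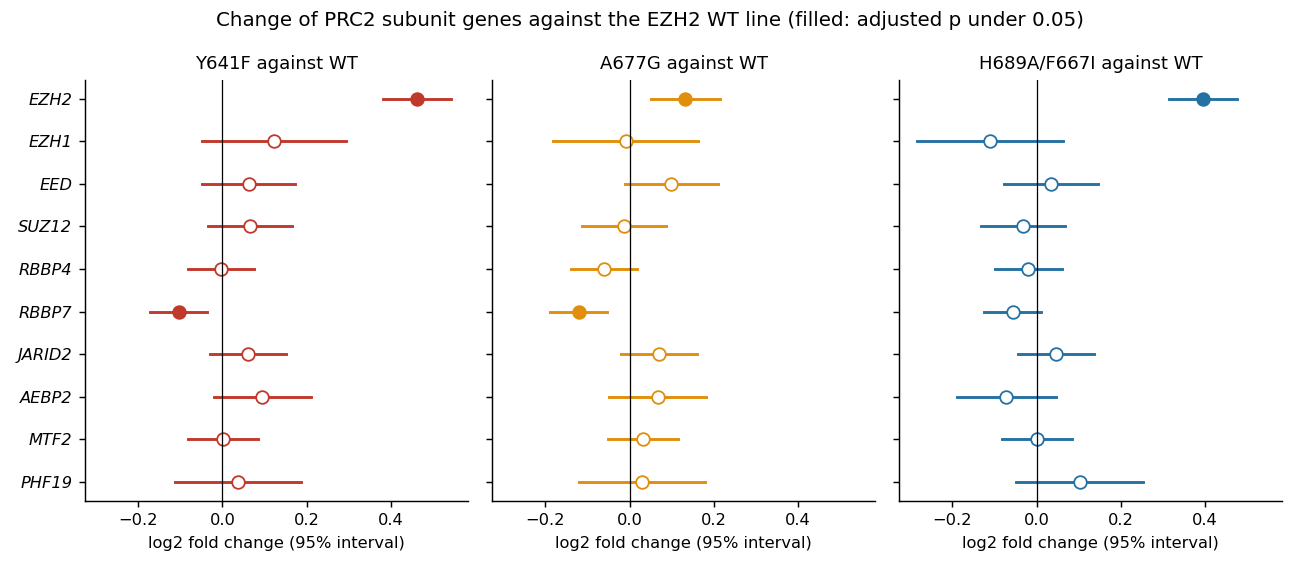
Log2 fold changes of the 10 PRC2 subunit genes in each mutant line against WT (horizontal axes), with 95% intervals as lines; filled points passed an adjusted p under 0.05 in edgeR's quasi-likelihood test. EZH2 passed in all 3 lines, at 0.46, 0.13 and 0.40, and RBBP7 in both GOF lines, at -0.10 and -0.12.

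Counted over the members, 2 of 10 passed in Y641F against WT, where 7.68% of the 14263 genes tested passed. The same 2 genes, EZH2 and RBBP7, passed in A677G against WT, beside 8.55% of all genes. In H689A/F667I against WT, EZH2 alone passed, in a comparison where 0.301% of all genes did. Those 3 comparisons share the WT libraries. EZH2 was also the member that passed between Y641F and A677G, where 0.0841% of all genes passed. Those last shares depend on the filter, since with the genes at 0 in a line kept, 169 in place of 43 genes passed in H689A/F667I against WT and 178 in place of 12 between Y641F and A677G. Between Y641F and H689A/F667I, 0 of 10 members passed beside 8.92% of all genes, with 2 at an unadjusted p under 0.05 and 0 by edgeR's exact test or DESeq2. EZH2 passed between A677G and H689A/F667I, beside 10.3% of all genes. In the GOF lines against the WT and LOF lines, 3 of 10 passed beside 15.9%, and EZH2 and RBBP7 differed among the 4 lines as a whole, in an F test that 12.4% of all genes passed.

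The lines were also compared by the range of their mean log2 levels per gene. The median range was 0.10 over the 10 members, against 0.14 over all genes tested and 0.10 over the 8327 genes whose mean log2 CPM was 4 or more. The ranges ran from 0.03 for MTF2 to 0.46 for EZH2, with 0.23 for EZH1, 0.16 for AEBP2 and 0.12 for RBBP7 in between.

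Per kilobase, RBBP7 was the most abundant member, at a mean of 169.6 CPM per kilobase over the 12 libraries, followed by EZH2 at 71.3. MTF2 stood at 32.1, RBBP4 at 26.7, EED at 19.3, SUZ12 at 13.7 and JARID2 at 10.2 CPM per kilobase. AEBP2 at 7.43, PHF19 at 4.93 and EZH1 at 3.44 CPM per kilobase closed the order. The library ranges of neighbours in this order did not overlap. The lengths are those of 1 reference transcript per gene, which may not be the transcript used in these cells. The place of EZH2 also rests on a count that holds introduced transcript, of a length not read here. MTF2 made up 75.5% to 80.0% of the sum of the 3 PRC2.1 paralogs MTF2, PHF19 and PHF1 in the 12 libraries.

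**Figure D4:**
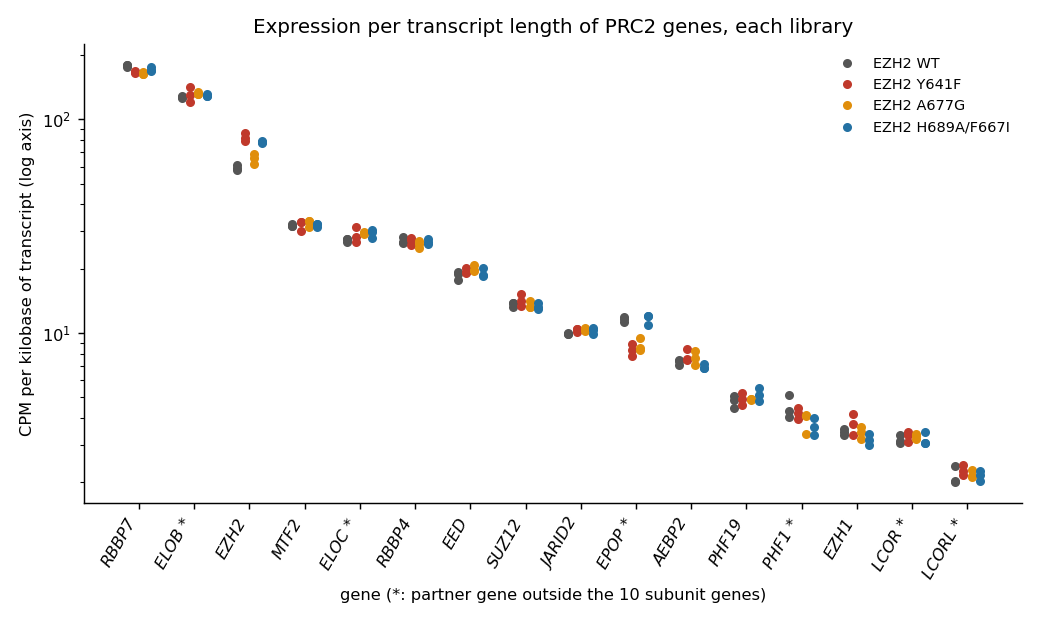
CPM per kilobase of transcript (log axis) of the 10 PRC2 subunit genes and 6 further partner genes (asterisks), ordered by mean; each point is a library, coloured by line. RBBP7 led and EZH1 was lowest of the 10 subunit genes, and the lines separated visibly for EZH2 and EPOP.

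Of 7 further PRC2 partners, 6 were in the table, and 1 of them differed. That gene passed in 5 comparisons, in which 7.68% to 15.9% of all genes passed. EPOP, which binds Elongin BC and SUZ12 in a form of PRC2.1, was read at 37.6, 36.6 and 38.7 CPM in WT, 29.0, 25.3 and 27.2 CPM in Y641F, 30.9, 27.0 and 27.7 CPM in A677G, and 38.9, 35.3 and 39.0 CPM in H689A/F667I. All GOF libraries lay below all WT and LOF libraries. EPOP was lower than in WT by -0.47 in Y641F (95% interval -0.60 to -0.34, adjusted p = 1.77e-06 in edgeR) and by -0.40 in A677G (-0.53 to -0.27, adjusted p = 2.61e-05 in edgeR). The GOF lines were at -0.43 against the WT and LOF lines (adjusted p = 2.11e-09 in edgeR), and no setting or left-out library ended any of its 5 calls. Per kilobase, EPOP stood at 0.362 ± 0.0044 of MTF2 in WT and 0.364 ± 0.0247 in H689A/F667I, against 0.263 ± 0.0319 in Y641F and 0.269 ± 0.0178 in A677G (SD, n = 3). PHF1, LCOR, LCORL and the Elongins ELOB and ELOC passed in none of the 7 comparisons.

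**Figure D5:**
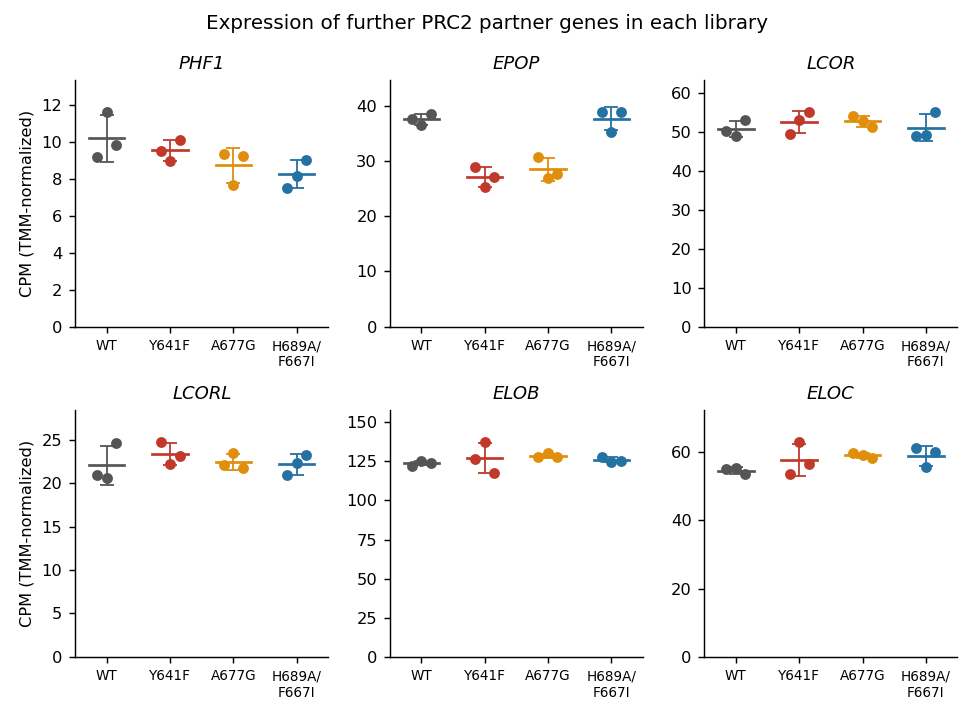
TMM-normalized CPM (vertical axes, from 0, a scale per gene) of 6 further PRC2 partner genes in each library, by line; points are libraries, horizontal lines are means and error bars are SD (n = 3). EPOP lay at 25.3 to 30.9 CPM in the GOF libraries and at 35.3 to 39.0 CPM in the others.

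Of 6 RNAs and factors reported to recruit or guide PRC2, MALAT1 and MYC passed in at least 1 comparison. In the comparisons where they passed, 7.68% to 15.9% of all genes did. MALAT1, a nuclear long non-coding RNA, was read at 181, 184 and 186 CPM in WT, 206, 192 and 231 CPM in Y641F, 214, 196 and 203 CPM in A677G, and 173, 193 and 173 CPM in H689A/F667I. All GOF libraries lay above WT, and those of Y641F overlapped with H689A/F667I through 1 library. MALAT1 was higher than in WT by 0.19 in Y641F (adjusted p = 0.0081 in edgeR) and by 0.15 in A677G (adjusted p = 0.0415 in edgeR). In the GOF lines against the WT and LOF lines it was higher by 0.19 (adjusted p = 8.34e-05 in edgeR). The call in A677G against WT was lost in DESeq2 (adjusted p = 0.0614), in 4 of the other 9 settings and in 5 of 12 fits without a library (WT replicate 1, 2 or 3, or A677G replicate 1 or 3). The call in Y641F against WT was lost without Y641F replicate 3, at 0.12 (adjusted p = 0.14 in edgeR). MYC was lower in A677G than in WT, by -0.19 (adjusted p = 0.00691 in edgeR), and higher in Y641F than in H689A/F667I, by 0.16 (adjusted p = 0.0303 in edgeR). Its mean level was 115 CPM in WT, 115 in Y641F, 101 in A677G and 103 in H689A/F667I. The lower level in H689A/F667I than in WT did not pass. The first MYC call was lost without WT replicate 1 or 2, and the second without H689A/F667I replicate 1 or 2 or without Y641F replicate 1, where it was 0.09. Other settings lost the first in 0 and the second in 2 of 10 cases.

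Among 5 H3K36 methyltransferases, whose mark hinders PRC2, 2 were higher in each GOF line than in the LOF line. Of all genes, 8.92% and 10.3% passed in these comparisons, for Y641F and A677G. NSD2 differed by 0.12 in Y641F (adjusted p = 0.0313 in edgeR) and by 0.12 in A677G (adjusted p = 0.0171 in edgeR), and NSD3 by 0.13 in each (adjusted p = 0.045 and 0.0329 in edgeR). Fits without a library lost the NSD2 calls in 3 of 12 cases in each line (Y641F replicate 3, A677G replicate 1 or 3, or H689A/F667I replicate 1 or 3), and the NSD3 calls in 7 and 5 of 12, every H689A/F667I replicate among them. Other settings lost the NSD2 calls in 2 and 0 of 10 cases and the NSD3 calls in 2 and 1, in Y641F and A677G. In the GOF lines against the WT and LOF lines, where 15.9% of all genes passed, NSD2 and NSD3 were each higher by 0.10 (adjusted p = 0.00528 and 0.0183 in edgeR). Fits without a library lost the NSD2 call there in 0 and the NSD3 call in 2 of 12 cases. Other settings lost them in 0 and 1 of 8. Against WT, 0 of 5 passed in any mutant line by edgeR's quasi-likelihood test, its exact test or DESeq2, with 0, 1 and 1 at an unadjusted p under 0.05 in Y641F, A677G and H689A/F667I. Of all genes, 7.68%, 8.55% and 0.301% passed there. Of 19 genes of other complexes that contain RBBP4 and RBBP7, such as the NuRD deacetylase, 0 passed in edgeR in any comparison. Of all genes, 0.0841% to 15.9% passed, depending on the comparison. DESeq2 called 1 of the 19, between Y641F and H689A/F667I, and 0 to 3 were at an unadjusted p under 0.05.

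EZH2 is a known E2F target and rises in cycling cells, so both groups were read beside it. Whether either group bears on the EZH2 differences was not tested, and the EZH2 count also holds introduced transcript. Of 10 E2F and RB regulators, 0 passed against WT in edgeR, its exact test or DESeq2, with at most 1 at an unadjusted p under 0.05. Of all genes, 7.68%, 8.55% and 0.301% passed there in Y641F, A677G and H689A/F667I, so 0 of 10 says little about the list. E2F3 was higher than in the LOF line by 0.13 in Y641F and by 0.17 in A677G (adjusted p = 0.0334 and 0.00361 in edgeR). RBL2 was higher than in the LOF line by 0.17 in Y641F (adjusted p = 0.0475 in edgeR). Of all genes, 8.92% and 10.3% passed in these comparisons of Y641F and A677G. The E2F3 call in Y641F was lost without Y641F replicate 3 or H689A/F667I replicate 1 or 2. That of RBL2 was lost in 8 of 12 fits without a library, and without Y641F replicate 1 the difference was 0.07 (adjusted p = 0.419 in edgeR). Other settings lost the E2F3 call in Y641F in 2 of 10 cases and that of RBL2 in 4 of 10, DESeq2 among them. In the GOF lines against the WT and LOF lines, E2F3 was higher by 0.08 and RBL2 by 0.11 (adjusted p = 0.0446 and 0.0378 in edgeR). There 15.9% of all genes passed. Fits without a library lost these calls in 8 and 9 of 12 cases, and other settings in 3 of 8 each. Of 16 cycling cell genes, PCNA, the replication clamp, was higher than in WT by 0.14 in A677G and by 0.18 in H689A/F667I (adjusted p = 0.0298 and 0.0443 in edgeR). CDK1, the mitotic kinase, was higher in the GOF lines than in the WT and LOF lines, by 0.08 (adjusted p = 0.0484 in edgeR). Of all genes, 8.55% and 0.301% passed in the comparisons of PCNA and 15.9% in that of CDK1. Fits without a library lost the PCNA calls in 5 and 9 of 12 cases and the CDK1 call in 7 of 12, with each WT replicate among the losses of PCNA. Other settings lost the PCNA calls in 1 and 2 of 10 cases. They lost the CDK1 call in 5 of 8 (adjusted p up to 0.137 in edgeR). The median log2 difference of the 16 genes from WT was 0.02, 0.02 and 0.00 in Y641F, A677G and H689A/F667I, against 0.00 over all genes in each.

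Marker genes also differed between the lines, in part along the division of RBBP7 and EPOP. The summed level of the 7 HEK293 markers was 617 to 643 CPM in WT, 472 to 525 CPM in Y641F, 438 to 478 CPM in A677G and 566 to 571 CPM in H689A/F667I, mainly through the neurofilament genes NEFL and NEFM. The summed level of the 2 fibroblast markers in the table was 9.63 to 11.5 CPM in WT, 13.5 to 21.3 CPM in Y641F, 11.8 to 13.5 CPM in A677G and 10.5 to 13.7 CPM in H689A/F667I. The rise in the GOF lines was that of COL3A1, at 1.34 in Y641F and 0.93 in A677G on the log2 scale against WT. COL1A1 stood at 0.003 and -0.33. The part of these differences in the results for the PRC2 genes was not tested. In such bulk samples, fewer cells of a kind and less RNA per cell cannot be told apart.

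The genes nearest to EZH2 in pattern were sought among 9870 genes whose mean log2 CPM was 3 or more, by the root-mean-square difference of their 3 log2 fold changes against WT. They were BCHE at 0.10, LGALS3BP at 0.11 and LINC01605 at 0.12. BCHE encodes a cholinesterase and LGALS3BP a secreted glycoprotein. BCHE was at 0.33, 0.12 and 0.28 in Y641F, A677G and H689A/F667I, LGALS3BP at 0.35, 0.28 and 0.39, and LINC01605 at 0.34, 0.19 and 0.24. Of the 3 comparisons with WT, each gene passed in that of Y641F (adjusted p = 0.0207, 0.0245 and 0.0254 in edgeR). The genes were picked by these same fold changes, so the p-values give no separate support for the likeness. Each was read at far fewer counts than EZH2, whose count also holds introduced transcript.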

How the data were processed

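RNA-Seq libraries (TruSeq Stranded mRNA) of 4 HEK293T lines, 3 per line, were analysed. According to the study's methods, reads were trimmed with Trim Galore 0.6.5, aligned to GRCh38 with STAR 2.7.9a and quantified with Salmon 1.2.0. The authors deposited whole-number counts per gene symbol, without normalization. The step from Salmon to these counts and the gene filter are not given in the sources used here.

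Of 14438 genes, 175 at 0 in every library of the A677G or H689A/F667I line were left out, and the remaining 14263 passed filterByExpr. An earlier reading of the counts had found these 175 genes to be absent by line in a block. Counts were fitted in R 4.3.3 with edgeR 4.0.16 (TMM, quasi-likelihood test, all 12 libraries, 1 coefficient per line), which replaced the exact test of the study. P-values were adjusted by Benjamini-Hochberg over all genes tested in each comparison, and genes passed under 0.05. Log2 CPM used a prior count of 2. CPM per kilobase divides by the length of 1 GENCODE transcript per gene, and 13272 symbols matched by name and 810 by synonym. Scripts were tested on simulated data. DESeq2 1.42.0 and other alternatives are given in the closing section.

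The members and gene lists were chosen with earlier results of these data known. Of each further list, up to 4 genes that passed in any comparison were named by smallest adjusted p, with the 3 genes nearest to EZH2 in pattern. Each replicate library counted as a sample. Replicates of a line differed beyond sampling noise (chi-square per gene 3.33 to 14.9), which does not show how independent they are. The result of 1 marker list is not reported here.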

Additional observations from a re-analysis of the deposited data

How the results depend on the processing

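Among the 25 genes refitted under the alternatives, the 10 members included, no called fold change changed sign. In Y641F against WT, 1 of the PRC2 members passed in place of 2 under edgeR's exact test, library totals, a fit of only the compared lines, counts thinned to the smallest library, and the replicate block, because RBBP7 was lost (adjusted p = 0.0521 with the block in edgeR). In A677G against WT, 1 passed in place of 2 with upper-quartile factors and with library totals, because EZH2 was lost (adjusted p = 0.0771 and 0.063 in edgeR). Leaving out each library in turn gave 1 to 2 members in Y641F against WT, 0 to 2 in A677G against WT, 0 to 1 in Y641F against H689A/F667I, 1 to 2 in A677G against H689A/F667I, 1 to 3 in the GOF lines against the WT and LOF lines, and 1 to 2 among all lines. From raw counts in place of counts per length, the share of EZH2 was 90.9%, 92.6%, 91.6% and 93.4% in WT, Y641F, A677G and H689A/F667I. AEBP2 in the GOF lines was lost with upper-quartile factors, a GC correction with or without the block, and thinned counts (adjusted p = 0.0621 to 0.0972 in edgeR).

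Of the member fold changes under other alternatives, 83 of 94 called values kept their call and 11 lost it. With a library left out, 94 of 120 kept it, 26 lost it and 4 gained one. Values without a call changed sign in 23 and 36 cases. Same-numbered replicates did not deviate together (r = -0.06 to 0.05 over 18 pairs, against -0.07 to 0.07 for the other pairs). No pairing by number was thus visible, which does not show whether same-numbered libraries were prepared together. Over all genes, H689A/F667I against WT gave 43 calls, and 75 by exact test, 86 with only the compared lines and 169 with no filter. Y641F against A677G gave 12, and 23 by exact test, 19 by DESeq2, 19 with the GC correction and block, and 178 with no filter. The exact test and the fit of compared lines gave no value for the GOF lines or for all lines. The cause of these differences was not tested. The depth of EZH1, the member with the fewest counts, limits its precision.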
